A study of Mus musculus with 6 samples.

Results

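Integrins are cell surface receptors made of an α and a β chain, and the pair decides which matrix protein is bound. On endothelial cells the α1 and α2 chains, paired with β1, bind collagens, α6 binds laminin of the basement membrane, and αvβ3 binds vitronectin, fibronectin and other proteins with an RGD motif and is known from the vessels of growing tumors. CD44 is no integrin but the receptor for the matrix polysaccharide hyaluronan, and α4, best known from leukocytes, binds fibronectin and VCAM1. Transcripts of these matrix receptors were followed in tumor endothelial cells (TECs) that lack the autophagy gene Atg5 and in TECs that keep it. The set was chosen by gene name among the 750 genes of the table and holds 8 of them, the α chains Itga1, Itga2, Itga4, Itga6 and Itgav, the β chains Itgb3 and Itgb8, and Cd44. The β1 partner chain is not analysed here, and integrin chains restricted to leukocytes were left out of the set.

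TECs were sorted by CD31 from subcutaneous tumors of the mouse melanoma line B16-F10 on day 18 after 250000 cells had been injected into C57Blk6 mice, and transcripts were measured on the NanoString nCounter, an instrument that reads barcoded probes bound to RNA and needs no amplification. The Atg5BECKO group (3 samples, replicates 2, 3 and 5) came from Pdgfb-CreERT2; Atg5 fl/fl mice, in which tamoxifen, given daily for 5 days, deletes Atg5 in cells where the Pdgfb promoter is active, which in these mice are blood endothelial cells. The WT group (3 samples, replicates 1, 4 and 6) came from littermates without Cre. Atg5 itself is not analysed here, so the deletion was not checked in these values. The methods describe a cross with a Rosa26 tdTomato reporter line and mice of both sexes, 7 to 14 weeks old. Whether a sample was 1 mouse or a pool is not given in the sources used here, so that p-values measure only the spread between these samples, which may be technical.

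Values are log2 normalized counts as deposited, and differences are Atg5BECKO minus WT on that scale. Each probe has its own efficiency, so levels were compared between samples and not between genes. Total counts were 168454 to 198541 in the Atg5BECKO samples and 76784 (replicate 6) to 244561 (replicate 4) in the WT samples. WT replicate 4 stood apart on the first principal component (57.1% of the variance), at -13.3. WT replicate 6, at 2.44, was the WT sample nearest to the Atg5BECKO samples, which lay from 3.88 to 6.28. The 13 endothelial identity genes, among them Pecam1 and Cdh5, all passed the study's filter on low signal, and their mean level was 10.64 ± 0.16 over Atg5BECKO samples and 10.53 ± 0.04 over WT samples (SD, n = 3 each). Of 23 leukocyte markers 2 passed that filter, and the summed normalized count of all 23 was 432 to 555 in Atg5BECKO samples and 282 to 769 in WT samples. In bulk samples such as these, fewer cells of a type and less RNA per cell cannot be told apart.

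Of the 8 matrix receptor genes, 5 passed the filter and 3 (Itga4, Itgb8 and Cd44) did not. At the study's thresholds (a log2 fold change beyond 0.7 in either direction and an unadjusted p under 0.05, here from limma), 1 of these 5 genes was higher in Atg5BECKO TECs, the collagen receptor chain Itga1, against 10.8% of the 379 tested genes. None of the 5 was lower, against 0.792% of the tested genes. After Benjamini-Hochberg adjustment over the 379 genes limma called 0 of the 5, and 0% of all tested genes, where 16.1% of the tested genes had an unadjusted p under 0.05. All 5 fitted differences were positive, as were 74.4% of those of all tested genes. Their median was 0.11, and the median of all tested genes was 0.24.

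Of the collagen-binding chains, Itga1 was higher in Atg5BECKO TECs and Itga2 did not pass the test. Itga1, the α chain of the α1β1 receptor for collagen IV and other collagens, had levels of 7.24, 7.24 and 7.08 in Atg5BECKO replicates 2, 3 and 5, and of 6.15, 5.93 and 6.73 in WT replicates 1, 4 and 6. Every Atg5BECKO sample was above every WT sample, with a gap of 0.35 between the nearest values, and the Atg5BECKO samples lay closer together. Such an order, with the Atg5BECKO samples on top, was seen in 25.6% of the tested genes and the opposite one in 2.11%, or 27.7% without overlap in either direction, so that 1 of 5 receptor genes is near the share of all genes. It averaged 7.19 ± 0.09 in Atg5BECKO TECs and 6.27 ± 0.41 in WT TECs (SD, n = 3 each), a log2 fold change of 0.91 (standard error, SE, 0.24, 95% confidence interval 0.34 to 1.49), which is 1.89-fold. Limma gave an unadjusted p of 0.00732, rank 18 of the 379 genes, and an adjusted p of 0.145. An exact two-sided permutation test gave p = 0.1, the smallest that 3 against 3 samples allow. Itga1 is also a gene of the signature that the study drew from these same samples, which is therefore no independent evidence of its direction.

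The Itga1 difference rested on whole counts of 168, 147 and 143 in Atg5BECKO replicates 2, 3 and 5, against 77, 96 and 55 in WT replicates 1, 4 and 6. WT replicate 6, the sample with the fewest counts, was the WT sample nearest to the Atg5BECKO group. The 95% interval for counting error alone (exact Poisson) ran from 6.84 to 7.32 in Atg5BECKO replicate 5, the lowest of its group, and from 6.33 to 7.11 in WT replicate 6, so the intervals of these nearest samples overlapped. Without WT replicate 6 the log2 fold change was 1.15 with a limma adjusted p of 0.041, and without WT replicate 4 it was 0.74 with an adjusted p of 0.252. After centring each sample on its median gene the log2 fold change was 0.54, below the threshold, with levels of 7.08, 7.09 and 6.83 in Atg5BECKO samples and of 6.36, 6.31 and 6.72 in WT samples, still without overlap.

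Itga2, the α chain of the α2β1 receptor for fibrillar collagen, had levels of 8.41, 8.21 and 8.26 in Atg5BECKO replicates 2, 3 and 5, and of 8.30, 8.12 and 8.35 in WT replicates 1, 4 and 6. The groups overlapped throughout. All 6 samples lay within a range of 0.29, the fifth smallest range of the 379 tested genes, and the log2 fold change was 0.03 (SE 0.17, 95% confidence interval -0.37 to 0.44, limma adjusted p = 0.933). This picture depended on the scaling, since after median centring the levels were 8.24, 8.06 and 8.01 in Atg5BECKO samples and 8.50, 8.50 and 8.34 in WT samples, with no overlap and a log2 fold change of -0.35 (limma adjusted p = 0.459).

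**Figure D1:**
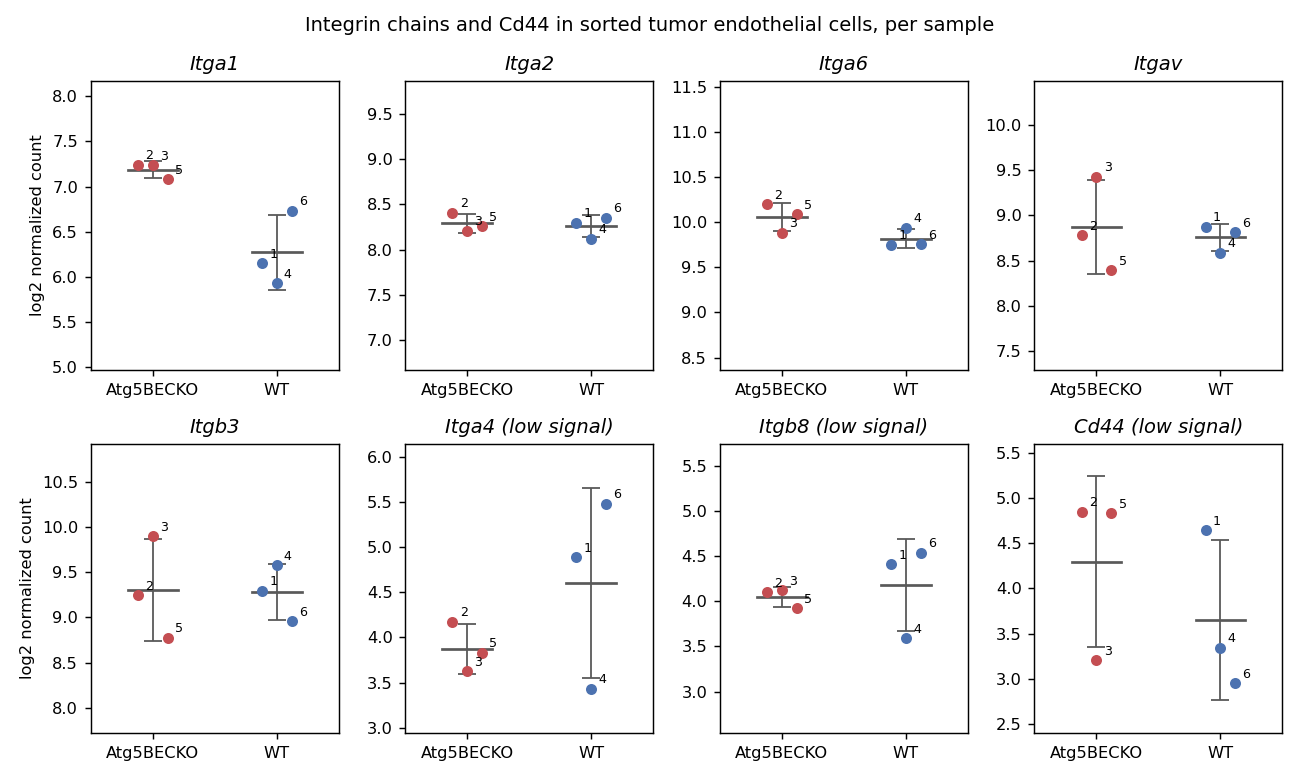
Level of each of the 8 genes in each sample (log2 normalized count, vertical axes of equal span), Atg5BECKO in red on the left and WT in blue on the right, with replicate numbers, the mean as a bar and the SD as whiskers (n = 3 each). The groups are apart only for Itga1, where the lowest Atg5BECKO sample is at 7.08 and the highest WT sample at 6.73.

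Itga1 and Itga2 are neighbours on chromosome 13. In the RefSeq annotation of GRCm38.p6, Itga1 spans chr13:114958079-115101964 and Itga2 chr13:114833081-114932100, both on the minus strand and 25978 bases apart. The position of the NanoString probes within the transcripts is not given in the sources used here. Both start regions are shown because these genes code for related receptors and lie side by side, with Itga1 levels apart between the groups and Itga2 levels within a narrow range as deposited. The 250 bases before each RefSeq start are printed 5′ to 3′ on the gene's strand, and capitals mark matches on either strand to any of 6 motifs searched.
Itga1, chr13:115101965-115102214: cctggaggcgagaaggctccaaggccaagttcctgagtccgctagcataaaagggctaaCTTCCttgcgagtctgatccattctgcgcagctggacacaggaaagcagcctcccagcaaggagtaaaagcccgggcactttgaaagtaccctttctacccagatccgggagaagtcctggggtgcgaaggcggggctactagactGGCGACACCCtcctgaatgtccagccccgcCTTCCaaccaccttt
Itga2, chr13:114932101-114932350: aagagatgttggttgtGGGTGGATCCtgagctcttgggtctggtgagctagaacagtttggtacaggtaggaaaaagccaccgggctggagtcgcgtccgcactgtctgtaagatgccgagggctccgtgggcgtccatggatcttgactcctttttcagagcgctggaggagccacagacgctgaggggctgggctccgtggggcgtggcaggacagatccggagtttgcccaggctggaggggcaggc

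The Itga1 window held 1 match to the kappa B motif GGGNNNNNCC, which begins 45 bases before the start, and 2 matches to the ETS motif GGAAG, beginning 191 and 15 bases before it. The Itga2 window held 1 kappa B match, beginning 234 bases before the start, and no ETS match. Neither window held the TATA box TATAAA, the GC box GGGCGG, the CCAAT box CCAAT or the AP-1 motif TGANTCA. These are common letters, since among 32851 RefSeq windows of this length 45.8% held the kappa B motif, 64.1% the ETS motif, 33.8% the CCAAT box, 32.7% the GC box, 12.4% the TATA box and 6.75% the AP-1 motif. No 2 of the motif matches overlapped in either window.

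The laminin receptor chain Itga6 (chr2:71786886-71858427), which anchors endothelial cells to the basement membrane, had levels of 10.20, 9.88 and 10.09 in Atg5BECKO replicates 2, 3 and 5, and of 9.75, 9.94 and 9.76 in WT replicates 1, 4 and 6. Of the Atg5BECKO samples, 2 lay above all WT samples, and replicate 3 lay within the WT range. The log2 fold change of 0.24 (SE 0.18, 95% confidence interval -0.18 to 0.66) did not pass limma's test, with an adjusted p of 0.554, and was at the median of all tested genes. After median centring it was -0.14.

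The αvβ3 pair varied more among Atg5BECKO samples than between the groups. Itgav (chr2:83722303-83806917), the αv chain shared by several receptors for RGD proteins, had levels of 8.78, 9.43 and 8.40 in Atg5BECKO replicates 2, 3 and 5, and of 8.87, 8.59 and 8.82 in WT replicates 1, 4 and 6. Itgb3 (chr11:104608000-104670476), its β3 partner, had levels of 9.24, 9.90 and 8.78 in Atg5BECKO replicates 2, 3 and 5, and of 9.30, 9.58 and 8.96 in WT replicates 1, 4 and 6. For both chains Atg5BECKO replicate 3 was the highest of all 6 samples and Atg5BECKO replicate 5 the lowest, so that the Atg5BECKO samples enclosed the WT samples. The log2 fold change was 0.11 for Itgav (SE 0.29, 95% confidence interval -0.57 to 0.79, limma adjusted p = 0.856) and 0.03 for Itgb3 (SE 0.32, 95% confidence interval -0.74 to 0.80, limma adjusted p = 0.957). The interval reached past the 0.7 threshold in both directions for Itgb3 and in the positive direction for Itgav. Without Atg5BECKO replicate 3 the signs turned, to -0.17 for Itgav and -0.27 for Itgb3.

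Among Atg5BECKO samples, but not among WT samples, both αvβ3 chains had the order of the endothelial identity genes. The mean level of the 13 endothelial identity genes was 10.65, 10.81 and 10.48 in Atg5BECKO replicates 2, 3 and 5, in the order of the Itgav and Itgb3 levels, and 10.51, 10.50 and 10.58 in WT replicates 1, 4 and 6, where Itgb3 was highest in replicate 4 and lowest in replicate 6. Scaled to these genes, Itgav had levels of 8.72, 9.21 and 8.50 in Atg5BECKO samples and of 8.95, 8.68 and 8.82 in WT samples, with an SD of 0.36 among Atg5BECKO samples (0.52 before) and 0.14 among WT samples (0.15 before). Scaled likewise, Itgb3 had levels of 9.18, 9.68 and 8.88 in Atg5BECKO samples and of 9.37, 9.66 and 8.97 in WT samples, with an SD of 0.40 among Atg5BECKO samples (0.56 before) and 0.35 among WT samples (0.31 before). The part of endothelial content in the αvβ3 levels beyond this scaling was not tested.

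Ratios between chains within a sample do not depend on the sample's normalization factor. Of the 10 pairs of the 5 measured chains, the groups did not overlap in the ratios of Itga1 to Itga2 and of Itga1 to Itga6. How often the groups are apart in ratios between other tested genes was not counted. The log2 ratio of Itga1 to Itga2 was -1.17, -0.97 and -1.17 in Atg5BECKO replicates 2, 3 and 5, and -2.14, -2.19 and -1.62 in WT replicates 1, 4 and 6, a mean difference of 0.88. The log2 ratio of Itga1 to Itga6 was -2.95, -2.65 and -3.00 in Atg5BECKO samples and -3.59, -4.01 and -3.02 in WT samples, a mean difference of 0.67 with the nearest samples almost level, and 0.44 without WT replicate 4. Each had an exact two-sided permutation p of 0.1, and 0.5 after adjustment over the 10 pairs. These pairs were read with the difference of Itga1 already known, so they give its size against each chain without any scaling and are no separate evidence of it. With a pseudocount of 10 the ratio of Itga1 to Itga6 differed by 0.59, with an exact permutation p of 0.2, so these groups were no longer apart. The ratios of Itga1 to Itgav and to Itgb3 differed by 0.81 and 0.88, with overlapping groups and an exact permutation p of 0.2 each.

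The ratio of Itgav to Itgb3 was nearly constant among Atg5BECKO samples, with log2 ratios of -0.46, -0.47 and -0.38 in replicates 2, 3 and 5 while the levels spanned 1.03 for Itgav and 1.12 for Itgb3. In WT replicates 1, 4 and 6 it was -0.42, -0.99 and -0.14. The SD of the ratio was 0.051 among Atg5BECKO samples and 0.43 among WT samples, and whether these spreads differ was not tested. The mean difference of 0.079 was within the spread (exact two-sided permutation p = 0.9). WT replicate 4, the sample apart from the rest, had the lowest ratio, with the highest Itgb3 and the lowest Itgav level of the WT samples.

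**Figure D2:**
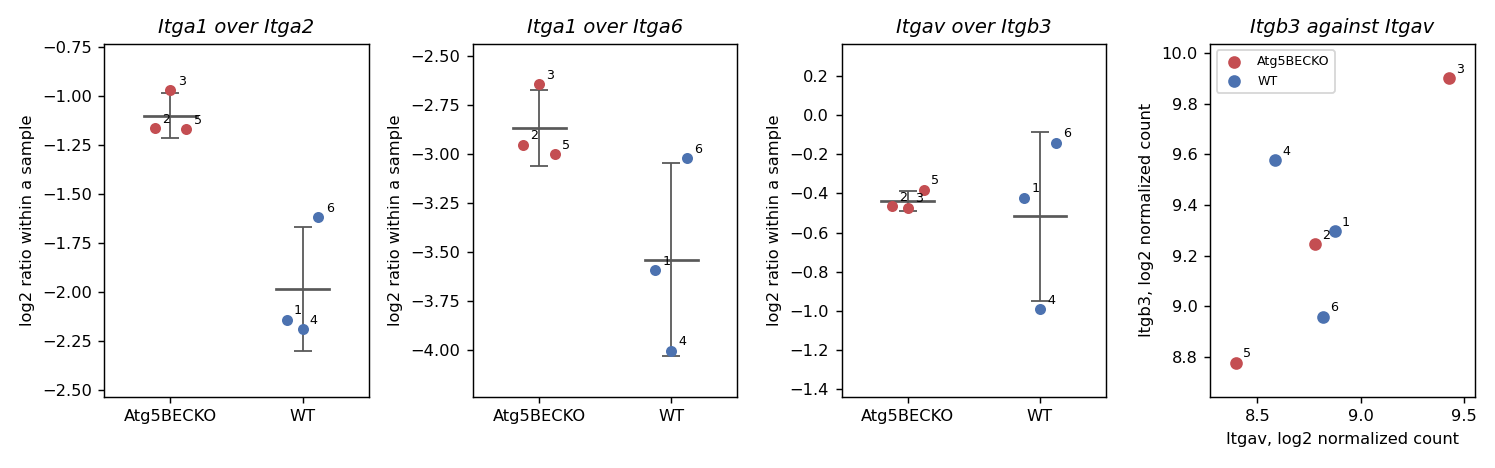
Log2 ratios between chains within each sample for Itga1 over Itga2, Itga1 over Itga6 and Itgav over Itgb3, Atg5BECKO in red on the left and WT in blue on the right (mean as a bar, SD as whiskers, n = 3 each), and the Itgb3 level against the Itgav level (log2 normalized counts). The 3 Atg5BECKO ratios of Itga1 to Itga2 lie from -1.17 to -0.97, all above the WT ratios, and the Atg5BECKO samples of the last panel are ordered 5, 2, 3 along both axes.

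The other 3 receptor genes were under the study's filter on low signal, with few counts. Itga4 (chr2:79255426-79333114), the chain that binds VCAM1 and fibronectin, had levels of 4.17, 3.62 and 3.83 in Atg5BECKO replicates 2, 3 and 5, and of 4.89, 3.43 and 5.48 in WT replicates 1, 4 and 6, on 12 to 32 counts. The mean level of the other 368 low-signal genes was 4.08, 3.76 and 4.14 in the same Atg5BECKO samples, and 3.96, 3.26 and 4.45 in the WT samples. Relative to that mean Itga4 was at 0.09, -0.13 and -0.30 in the Atg5BECKO samples, and at 0.93, 0.17 and 1.03 in WT replicates 1, 4 and 6. The deposited levels of the groups overlapped. Relative to the low-signal mean every Atg5BECKO sample was below every WT sample, but the nearest lay close together. These were Atg5BECKO replicate 2 at 0.09 and WT replicate 4 at 0.17, on 20 and 17 counts. Their 95% counting intervals (exact Poisson, deposited levels) ran from 3.46 to 4.80 and from 2.65 to 4.11, far wider than that distance. The separation was not tested, and how many low-signal genes share it was not counted. In a fit of the deposited levels over all 750 genes the log2 fold change of Itga4 was -0.72 (SE 0.52, limma adjusted p = 0.868). Itgb8 (chr12:119162803-119238276), which pairs with αv in a receptor that activates TGF-β, had levels of 4.10, 4.13 and 3.93 in Atg5BECKO replicates 2, 3 and 5, and of 4.41, 3.59 and 4.54 in WT replicates 1, 4 and 6, on 12 to 23 counts. The WT samples enclosed the Atg5BECKO samples, with a log2 fold change of -0.13 (SE 0.32, limma adjusted p = 0.983).

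Cd44 (chr2:102811141-102901669) had levels of 4.85, 3.21 and 4.83 in Atg5BECKO replicates 2, 3 and 5, and of 4.64, 3.35 and 2.95 in WT replicates 1, 4 and 6. Its counts were 32, 9 and 30 in those Atg5BECKO samples and 27, 16 and 4 in those WT samples. Each group held samples at both ends, and Cd44 was above the mean of the low-signal genes by 0.77 and 0.70 in Atg5BECKO replicates 2 and 5 and by 0.68 in WT replicate 1. Its log2 fold change was 0.65 (SE 0.60, limma adjusted p = 0.907 over 750 genes), a difference not detectable at this depth. The 5 leukocyte integrin chains of the table, among them Itgam and Itgb2, were low as well. Their summed normalized count was 89.3 to 115 in Atg5BECKO samples and 51.5 to 194 in WT samples.

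Ligands and signaling partners of these receptors were read from 5 lists with 32 genes, of which 19 passed the low-signal filter. At the study's thresholds 2 of the 19 were higher in Atg5BECKO TECs, against 10.8% of the 379 tested genes, and 1 was lower, against 0.792%. The median log2 fold change of the 19 was 0.11, beside 0.24 for all tested genes. None passed limma's test after adjustment. Among the ligands of αv and α4 integrins, 5 of 7 were measured and 1 was higher, with a list median of -0.30. That gene was Vcam1, an endothelial adhesion molecule and the ligand of α4β1, which the study also names from these samples, with levels of 6.94, 6.95 and 7.78 in Atg5BECKO replicates 2, 3 and 5, and of 6.02, 5.13 and 6.71 in WT replicates 1, 4 and 6. The groups did not overlap (log2 fold change 1.27, SE 0.44, limma adjusted p = 0.196). Thbs1, a matrix glycoprotein that αvβ3 and CD47 bind, differed by -0.45 (SE 0.42) with overlapping groups. Mfge8, a secreted RGD protein that bridges αv integrins to dying cells, had -0.30 (SE 0.28). The TGF-β genes, whose latent proteins bind αv integrins, had -0.03 for Tgfb1 (SE 0.18) and -0.49 for Tgfb3 (SE 0.39). None of these 4 genes passed the test.

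Of the collagen chains 2 of 6 were measured. Col6a3, a chain of collagen VI made mainly by fibroblasts and mural cells, was lower, with levels of 5.40, 5.08 and 5.73 in Atg5BECKO replicates 2, 3 and 5, and of 7.81, 7.23 and 5.81 in WT replicates 1, 4 and 6. The groups did not overlap, but WT replicate 6 was close to the highest Atg5BECKO sample (log2 fold change -1.54, SE 0.50, limma adjusted p = 0.177). Col11a1, a fibrillar collagen chain, had a difference of 0.52 (SE 0.56), and Nid2, a basement membrane linker and the 1 measured gene of 4 in the laminin and nidogen list, had 0.25 (SE 0.26). The 3 hyaluronan- or CD44-binding proteins of the lists, Vcan, Tnfaip6 and Mmp9, were all under the low-signal filter.

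Of 12 genes for signaling and the cytoskeleton below integrins, 11 were measured. The list median was 0.27, beside 0.24 for all tested genes. Of the 11 genes, 1 was higher at the study's thresholds, against 10.8% of the tested genes, and none was lower. That gene was Rock1, a kinase that contracts the actin cytoskeleton, with levels of 6.52, 6.88 and 7.17 in Atg5BECKO replicates 2, 3 and 5, and of 5.82, 5.54 and 6.63 in WT replicates 1, 4 and 6. WT replicate 6 lay above Atg5BECKO replicate 2, so the groups overlapped (log2 fold change 0.87, SE 0.33, limma adjusted p = 0.249). The log2 fold change was 0.59 for Pik3r1 (SE 0.22), a regulatory subunit of PI3-kinase, 0.49 for Dab2 (SE 0.18), an adaptor for integrin endocytosis, and 0.44 for Pik3ca (SE 0.20), a catalytic subunit. These 3 genes were short of the 0.7 threshold, with groups that did not overlap. Every Atg5BECKO sample was above every WT sample in 6 of the 19 measured list genes, and in 25.6% of the tested genes. The signaling list averaged 7.98 ± 0.0050 over Atg5BECKO samples and 7.76 ± 0.04 over WT samples (SD, n = 3 each). Its median log2 fold change turned to -0.11 after median centring.

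**Figure D3:**
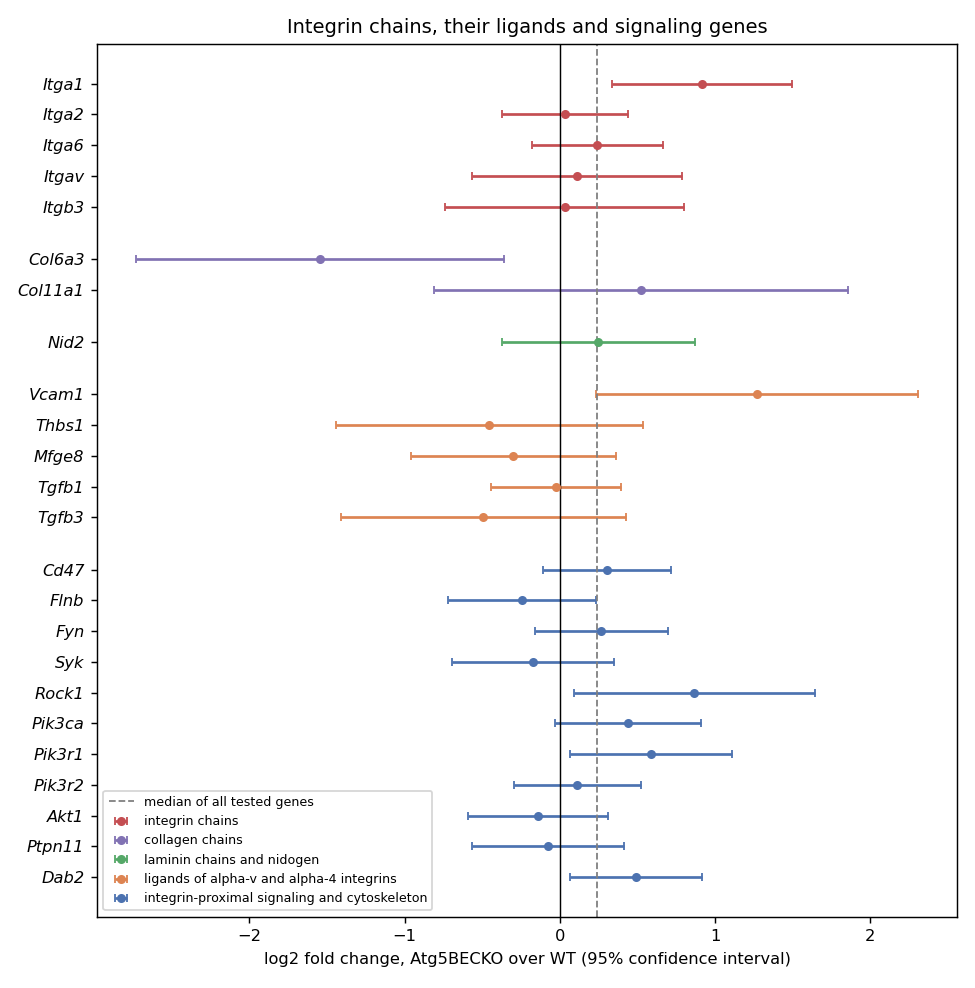
Log2 fold change, Atg5BECKO over WT, with its 95% confidence interval from limma (n = 3 samples each), for the 5 measured integrin chains and the 19 measured genes of the ligand and signaling lists, in colors by list. The dashed line is the median of all 379 tested genes (0.24), which the interval of Itga1 (0.34 to 1.49) lies above.

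Some markers of other cell types also differed between the groups. Of 12 fibroblast and mural cell markers 5 passed the filter. Of these, 3 were lower in Atg5BECKO TECs at the study's thresholds, against 0.792% of the tested genes. They were Thy1 (log2 fold change -1.10, SE 0.34), Olfml2b (-1.39, SE 0.37) and Col6a3, which also counts among the collagen chains above. Of the rest, Col11a1 had 0.52 (SE 0.56) and Adam12 -0.07 (SE 0.24), with overlapping groups. Pdgfrb, a defining pericyte marker, was under the low-signal filter but not low in every sample. Its levels were 4.80, 4.68 and 4.68 in Atg5BECKO replicates 2, 3 and 5, and 6.87, 5.98 and 4.12 in WT replicates 1, 4 and 6. It had 126 and 99 counts in WT replicates 1 and 4, and 9 in WT replicate 6. The summed normalized count of the 12 markers was 602 to 926 in Atg5BECKO samples and 778 to 1341 in WT samples. By sample the sum was 926, 602 and 626 in Atg5BECKO replicates 2, 3 and 5, and 1341, 1088 and 778 in WT replicates 1, 4 and 6. Itga1 was lowest in WT replicates 1 and 4, which had the highest sums. It was highest in Atg5BECKO replicate 2, whose sum was above that of WT replicate 6. Of the 5 markers past the filter, Adam12 had the highest level. Adam12 and Col11a1 were at 9.08 and 5.43 in Atg5BECKO replicate 2, above 8.65 and 4.95 in WT replicate 6. The 3 markers called lower, Thy1, Olfml2b and Col6a3, were at 6.23, 6.59 and 5.40 in Atg5BECKO replicate 2, below 6.35, 6.76 and 5.81 in WT replicate 6. Of the lymphatic endothelial markers, Ccl21a was higher (2.08, SE 0.46), with levels of 8.56, 7.96 and 7.55 in Atg5BECKO replicates 2, 3 and 5, and of 5.47, 5.45 and 6.91 in WT replicates 1, 4 and 6, and Reln had 0.21 (SE 0.29). As with Itga1, WT replicate 6 had the highest Ccl21a level of its group. The same held for Vcam1 and Rock1, and this sample was the WT sample nearest to the Atg5BECKO group on the first principal component. The part of these cell types in the Itga1 difference was not tested. Scaled to the endothelial identity genes, Itga1 had a log2 fold change of 0.80 and groups that did not overlap.

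The genes most like each receptor across the 6 samples were named by the highest Pearson r of log2 levels among the tested genes. These r are a description over 6 samples, which share the groups, the normalization and WT replicate 4. Nearest to Itga1 were Dab2 (r = 0.997) and Rps6kb1, an mTOR effector kinase (r = 0.984), beside a median r of 0.53 over all tested genes. After median centring these r were 0.77 and 0.96. Nearest to Itga6 were the endothelial repressor gene Bcl6b (r = 0.909) and the cytokine receptor chain gene Il2rg (r = 0.892), with r of 0.99 and 0.88 after centring. Nearest to Itgav were the growth hormone receptor gene Ghr (r = 0.960) and Stat3 (r = 0.946), and nearest to Itgb3 the Notch ligand gene Dll4 (r = 0.965) and Tgfb1 (r = 0.954). After centring these 4 had r between 0.88 and 0.98. Nearest to Itga2 were the cytokine genes Cxcl11 (r = 0.956) and Tslp (r = 0.949), whose r fell to 0.19 and 0.26 after centring.

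**Figure D4:**
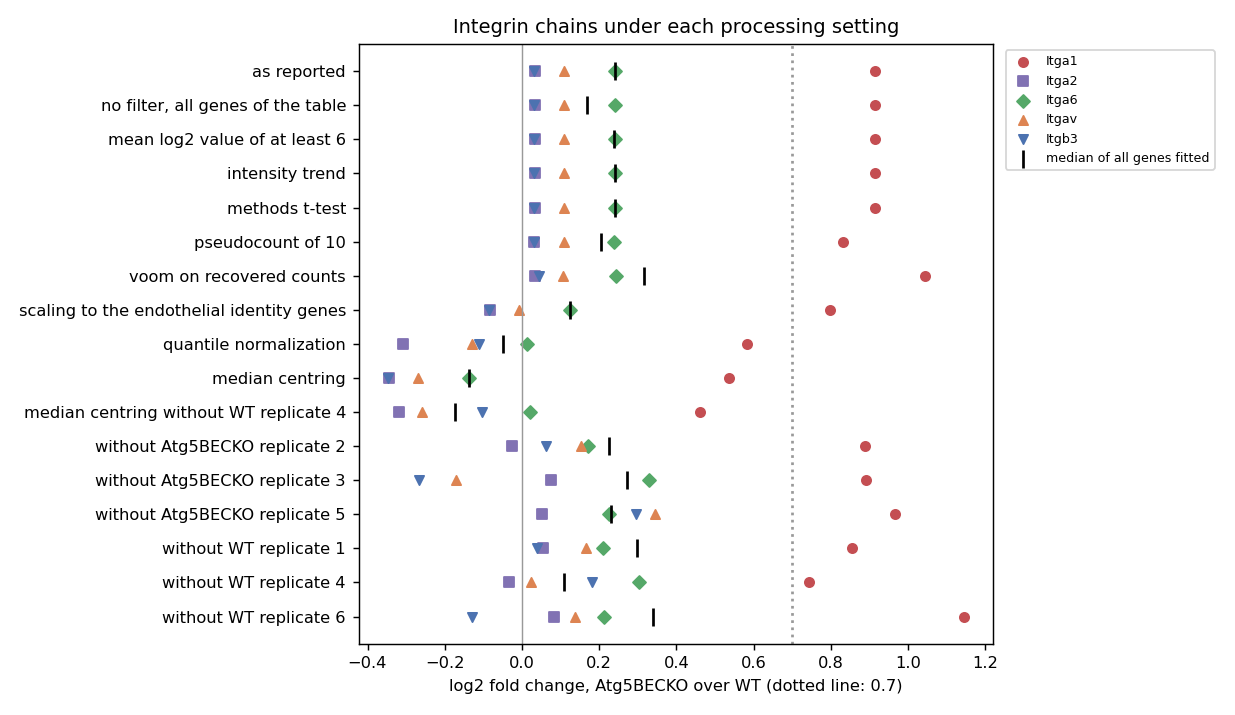
Log2 fold change, Atg5BECKO over WT, of the 5 measured integrin chains (colored symbols) and the median of all genes fitted (black ticks) for the reported values and under each of 16 alternative settings. Itga1 stays between 0.46 and 1.15, to the right of the other chains in each setting, and is left of the dotted 0.7 line only after quantile normalization and both forms of median centring.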

How the data were processed

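NanoString counts of 6 samples of sorted TECs, 3 Atg5BECKO and 3 WT, were analysed, with groups and replicate numbers from the sample labels. RNA (10 ng per sample) was run, according to the methods, on the PanCancer Mouse Immune Profiling panel. The authors normalized the counts of each sample by 1 factor in nSolver 4.0, subtracted no background, and deposited them on a log2 scale. Whole counts were recovered from the values, 100% of which came out whole within a tolerance of 0.01. The 379 genes that the study tested, after its filter on low signal, were compared by lmFit and eBayes of limma 3.58.1 (R 4.3.3), with Benjamini-Hochberg adjustment. The 371 low-signal genes were fitted only in the alternative without a filter. Single values and within-sample ratios were compared with exact permutation tests (SciPy 1.17.1).

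The genes and lists were chosen with earlier results of these data known. A gene of the signaling list is not reported here and was left out of its counts. Named genes are the 8 receptor genes, measured genes of the lists, and for each measured receptor gene the 2 tested genes with the highest Pearson r. Cell type markers were read as counts and sums. The 8 genes were matched by symbol to RefSeq annotation, and start regions were shown for Itga1 and Itga2. The fit was repeated after median centring, quantile normalization or scaling to endothelial identity genes, with no filter or with genes averaging at least 6 on the log2 scale, and with an intensity trend, the methods' t-test, a pseudocount of 10, limma-voom on the recovered counts and leaving out each sample. Limma-voom stood in for the count model because the deposited unit is log2. Median centring without WT replicate 4 was added after seeing the data. The limma fit was tested on simulated data first. Figures were drawn with matplotlib 3.10.9.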

Additional observations from a re-analysis of the deposited data

How the results depend on the processing

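Of 16 alternatives, Itga1 kept a positive log2 fold change in all 16 and passed the study's thresholds in 13, with limma adjusted p from 0.041 (voom, and without WT replicate 6) to 0.447 (no filter). It did not pass after median centring (0.54), quantile normalization (0.58) or median centring without WT replicate 4 (0.46), where 0 of the 5 chains were higher at the thresholds. Leaving out each sample gave 0.74 to 1.15. Signs of the other chains turned with the scaling, which moved the median of all tested genes to -0.14, -0.050 and -0.17. Median centring gave -0.35 for Itga2, -0.14 for Itga6, -0.27 for Itgav and -0.35 for Itgb3. Quantile normalization gave -0.31 for Itga2, -0.13 for Itgav and -0.11 for Itgb3, and scaling to the endothelial genes -0.083, -0.0070 and -0.086. Centring without WT replicate 4 gave -0.32 for Itga2, -0.26 for Itgav and -0.10 for Itgb3. Leaving out each sample gave -0.035 (without WT replicate 4, and -0.025 without Atg5BECKO replicate 2) to 0.082 for Itga2, -0.17 to 0.35 for Itgav and -0.27 to 0.30 for Itgb3, with the negative signs without Atg5BECKO replicate 3 and, for Itgb3 (-0.13), without WT replicate 6. The cause was not tested. The ratio of Itga1 to Itga2 differed by 0.78 to 1.06 over 7 alternatives, and that of Itga1 to Itga6 by 0.44 to 0.93.

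Over all tested genes, 41 were higher and 3 lower at the thresholds, against 17 and 13 after median centring, 21 and 9 after quantile normalization and 15 and 19 with centring without WT replicate 4. The lower count was 5 without a filter and 1 with the methods' t-test. At an adjusted p under 0.05, voom called 19 higher and 1 lower, and the fit without WT replicate 6 called 16 higher and 2 lower. Over 14 alternatives each, list medians ran from -1.54 to -0.048 for the collagen chains, -0.68 to -0.047 for the αv and α4 ligands and -0.11 to 0.35 for the signaling genes, with -0.51, -0.30 and 0.27 as reported. No paired analysis was possible because the groups share no replicate numbers. Depth limits Itga4, Itgb8 and Cd44, with 4 to 32 counts a sample.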
